A study of Mus musculus with 30 samples.

Results

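The genes described here are 10 regulators of red cell formation and of early blood progenitors. They are the transcription factors Gata1, Gata2, Tal1, Klf1, Nfe2, Gfi1b and Myb, the cofactors Lmo2 and Zfpm1, and the erythropoietin receptor gene Epor. They were chosen by name with earlier results of these data known, as were the gene lists used below, so counts over them are descriptions. All 10 had a row among the 24957 gene symbols of the spleen and of the lymph node table. The libraries hold poly(A) RNA of spleen and lymph node from wild-type (WT) mice, whose sample titles name the inbred strain FVB, and from mice labelled Pad2-/- or Pad4-/-. These lack Padi2 or Padi4, which encode enzymes that turn protein arginine into citrulline. The stated question is how both knockouts differ from WT in their response to imiquimod, an agonist of Toll-like receptor 7.

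The 18 spleen libraries form 6 groups of 3: WT, Pad2-/- and Pad4-/- mice, each as control and after imiquimod. The 12 lymph node libraries form 3 groups of 4, 1 for each genotype, and all are labelled as imiquimod. The labels give no age, dose or time, no strain for the knockouts, and no word on whether replicates came from separate animals. The p-values below thus reflect the spread among these libraries alone, and that spread may be technical. The extract protocol speaks of imiquimod-treated mice alone, while the agent label marks 9 spleens as control. The titles of the same 9 hold Na where those of treated spleens hold IMIQU. Each comparison with control rests on the agent label and these titles.

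Red cells form from progenitors that pass from a GATA2-driven to a GATA1-driven state. GATA1 acts with its cofactor FOG1, the product of Zfpm1, and in a complex with TAL1 and the bridging protein LMO2. KLF1 binds CACCC boxes of globin and other erythroid genes, NFE2 acts at globin and platelet genes, GFI1B represses progenitor genes, and the erythropoietin receptor carries the survival signal of early erythroblasts. MYB maintains dividing progenitors and falls in abundance as erythroid cells mature. The spleen of the mouse is a site of red cell formation, also in the adult, and expands it under stress and inflammation.

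The values are RPKM, read numbers divided by transcript length and by the mapped reads of the library. They summed to 350314 to 506819 per spleen library and 368211 to 468564 per lymph node library, and 10905 to 11332 and 11483 to 12198 genes reached 1 RPKM. The absolute depth is unknown, and depth relative to the shallowest library of the same tissue ranged up to 1.82 in spleen and up to 1.4 in lymph node. Padi2 was at 10 ± 0.399 RPKM in WT and 1.13 RPKM in Pad2-/- control spleen, and Padi4 at 16.8 ± 8.59 in WT and 0.149 in Pad4-/- imiquimod spleen (n = 3 each). In lymph node, Padi4 was at 0.679 to 1.05 RPKM in WT, and in the libraries labelled Pad4-/- at 0.0958 and 0.131 in replicates 1 and 2 but at 0.607 and 1.17 in replicates 3 and 4. The last 2 libraries go against their label, so results of that group are given with and without them. Glycam1, a product of lymph node vessels, was listed at 0 in all 9 control spleens and at 415 to 2286 RPKM in the lymph nodes. The spleen factor gene Tlx1 was near 0 in the spleens (0 to 0.0783 RPKM in the controls). Spic, also used to mark spleen, was at 6.23 to 9.17 RPKM in the control spleens and 12 to 18.9 in the lymph nodes. The genes used to mark spleen summed to 9.48 to 14.5 RPKM in control spleens, 48.7 to 73.5 in treated spleens and 20.5 to 46.8 in lymph nodes. They do not set the organs apart, so the organ label rests on Glycam1 and its kind.

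In the mouse genome (GRCm38, GENCODE) the members lie on 8 chromosomes. Klf1 occupies chr8:84901928-84905291 on the plus strand, Gfi1b chr2:28609450-28621982, Epor chr9:21958897-21963506 and Gata1 chrX:7959260-7978071, the last 3 on the minus strand. Tal1 lies on chromosome 4 at 115056426 to 115071755, 25.7 Mb from Padi4 and 25.8 Mb from Padi2. Lmo2 and Myb each overlap a gene on the opposite strand (4931422A03Rik and Gm26577) and Zfpm1 overlaps Gm20388 on its own strand. Whether reads were counted by strand is not given in the sources used here, so reads of these 3 members and their neighbours cannot be told apart with certainty.

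RefSeq promoters, 250 bases before to 50 after the start site on GRCm38.p6, were matched for 8 members. None was matched for Nfe2 and Lmo2. The RefSeq start sites can differ from the ends of the GENCODE spans above, and the Gata1 window lies inside its span. The 4 printed below belong to members with some of the largest responses to imiquimod and hold letters that the regulators themselves are known to read. Capitals mark a GATA site (GATA with A or T before it and A or G after it) or a CACCC box (CCACACCC, CCACGCCC or CCNCACCC), each searched on both strands. The windows are chr8:84901732-84902031 (plus strand), chr2:28621933-28622232, chr9:21963527-21963826 and chrX:7967861-7968160 (minus strand), in the order shown.
Klf1: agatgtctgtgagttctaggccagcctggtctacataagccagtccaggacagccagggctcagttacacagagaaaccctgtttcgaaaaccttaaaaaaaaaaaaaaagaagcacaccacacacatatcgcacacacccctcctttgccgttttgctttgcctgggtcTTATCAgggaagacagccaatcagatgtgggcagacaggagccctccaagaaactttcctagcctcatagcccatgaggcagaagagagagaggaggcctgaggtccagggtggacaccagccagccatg
Gfi1b: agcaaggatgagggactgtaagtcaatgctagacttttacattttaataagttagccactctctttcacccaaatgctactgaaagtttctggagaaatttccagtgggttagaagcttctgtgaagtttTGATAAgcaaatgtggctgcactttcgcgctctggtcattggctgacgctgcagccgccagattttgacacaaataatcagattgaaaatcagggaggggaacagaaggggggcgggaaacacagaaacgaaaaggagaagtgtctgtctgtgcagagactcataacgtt
Epor: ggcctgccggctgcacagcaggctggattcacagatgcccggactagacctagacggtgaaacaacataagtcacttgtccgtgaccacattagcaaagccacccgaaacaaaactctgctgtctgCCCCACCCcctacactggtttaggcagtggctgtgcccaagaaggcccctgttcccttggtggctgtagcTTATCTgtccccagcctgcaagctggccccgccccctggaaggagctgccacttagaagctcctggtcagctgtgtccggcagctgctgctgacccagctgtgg
Gata1: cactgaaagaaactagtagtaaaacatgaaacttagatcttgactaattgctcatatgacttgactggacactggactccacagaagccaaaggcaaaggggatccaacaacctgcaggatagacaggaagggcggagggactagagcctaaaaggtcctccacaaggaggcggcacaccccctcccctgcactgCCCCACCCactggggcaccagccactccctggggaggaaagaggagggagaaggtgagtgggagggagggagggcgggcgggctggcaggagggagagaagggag

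The Klf1 window holds a GATA site on the opposite strand (read as TTATCA) 80 bases before the start site, and the Gfi1b window a TGATAA 120 bases before it. Both sites are part of an E-box and GATA composite, CTG and GATAA with 8 or 9 bases between, the arrangement bound by the complex of GATA1, TAL1 and LMO2. Such a composite was present in 1.46% of 32851 promoters of 300 bases, and a GATA site alone in 29.8%. The Epor window holds a GATA site and a CACCC box, and the Gata1 window a CACCC box 55 bases before the start. CACCC boxes were present in 20.7% of all promoters. Of the windows not printed, Zfpm1 held a CACCC box and 1 of the 2 Tal1 windows a GATA site on the opposite strand, while the other Tal1 window, both Gata2 windows and Myb held none of these letters.

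In WT control spleen the members spanned a wide range of levels (mean RPKM, n = 3). Lmo2 was at 61, Zfpm1 at 11.4 and Myb at 4.25, and the libraries of each lay above those of the next. Klf1 at 3.01 and Nfe2 at 2.78 overlapped, and Nfe2 lay above Gata1 at 1.69. From Gata1 down, through Epor at 1.41, Gata2 at 1.14, Tal1 at 1.01 and Gfi1b at 0.881, neighbours in the order overlapped. After imiquimod the WT order was Klf1 at 106, Lmo2 at 69, Zfpm1 at 58.4, Gata1 at 33.8, Nfe2 at 31.9, Epor at 29.9, Tal1 at 27.5, Gfi1b at 16.7 and Myb at 16.2, in which every pair of neighbours overlapped. Gata2 at 3.87 was the lowest and did not overlap with Myb. The plot of the members in the spleen libraries shows both states.

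**Figure D1:**
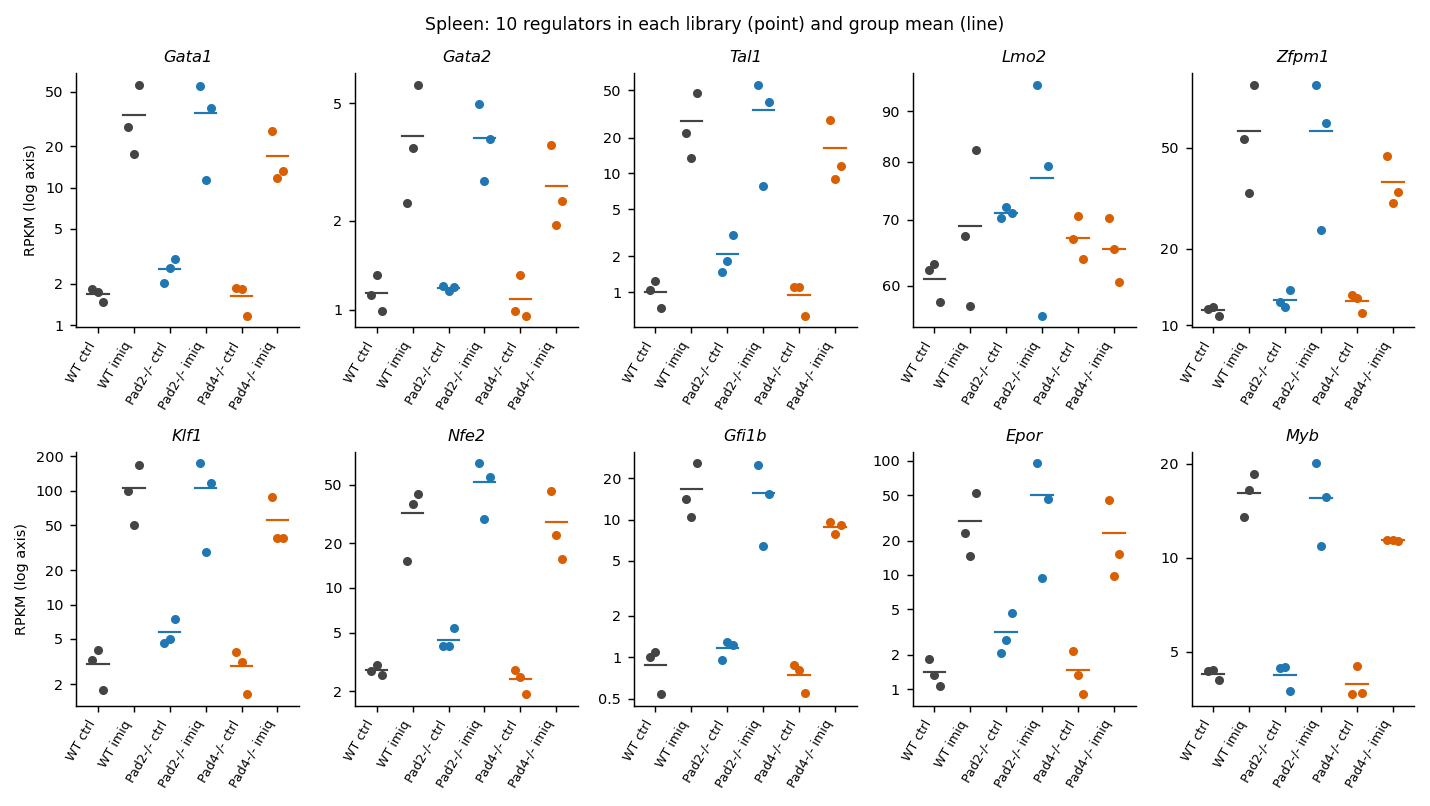
RPKM of the 10 members (log axis) in each of the 18 spleen libraries (points) with the group mean (line), for control and imiquimod libraries of WT, Pad2-/- and Pad4-/- mice. In 9 panels all imiquimod points lie above all control points of their genotype, and in the Lmo2 panel the points overlap in each genotype.

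After imiquimod 9 of the 10 members rose in WT spleen, 9 in Pad2-/- and 9 in Pad4-/-, and in each genotype the exception was Lmo2. For all 9, each imiquimod library lay above each control library of its genotype, as for 41.8% of all genes tested in WT, 37.2% in Pad2-/- and 37.6% in Pad4-/-. Of the 11982 genes tested, 40.3% rose in WT, 36.3% in Pad2-/- and 33.9% in Pad4-/- (limma, adjusted p below 0.05), so that a rise alone was common in these spleens. The size of the change differed more: the median log2 change of the members was 3.37 in WT, 3.19 in Pad2-/- and 2.94 in Pad4-/-, against 0.06, -0.02 and -0.04 over all genes tested. Changes are differences of log2(RPKM + 0.5) with the standard error of the fit, which understates the change of low genes. In bulk RNA, more cells of a type and more RNA per cell cannot be told apart. Scaling moved the share of higher among called genes from 54.8% to 41.8% in WT with quantile normalization and to 37.6% with haemoglobin left out of the total. For Pad2-/- these shares were 49.7%, 41.1% and 36%, and for Pad4-/- 48.4%, 40.1% and 31%. The median of all genes moved to between -0.29 and -0.12 under these 2 scalings, and the 9 rises passed under both.

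Gata1, the main activator of the erythroid programme, was at 1.84, 1.75 and 1.47 RPKM in WT control spleens and at 27.8, 17.7 and 56 after imiquimod. The lowest treated library was several times higher than the highest control. The change was 3.81 ± 0.47 (limma adjusted p = 3.54e-06). In Pad2-/- spleen it went from 2.01, 2.62 and 3 to 54.9, 11.4 and 37.7, and in Pad4-/- from 1.86, 1.82 and 1.17 to 25.8, 11.8 and 13.1. Replicate 2 was the lowest treated library in both knockouts. Both changes passed, at 3.28 ± 0.47 (limma adjusted p = 1.83e-05) and 2.97 ± 0.47 (limma adjusted p = 5.57e-05).

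Gata2, the GATA factor of stem and progenitor cells and of mast cells, moved far less. It was at 1.12, 1.31 and 0.986 RPKM in WT control spleen and at 2.3, 3.54 and 5.78 after imiquimod, 1.34 ± 0.25 higher (limma adjusted p = 0.000209). The treated Pad2-/- libraries held 4.99, 2.72 and 3.78 against 1.2, 1.16 and 1.19 in their controls, a change of 1.33 ± 0.25 (limma adjusted p = 0.000247). For Pad4-/- the values were 3.61, 1.93 and 2.33 against 0.992, 1.31 and 0.954, a change of 0.95 ± 0.25 (limma adjusted p = 0.00379). The treated and control libraries did not overlap, but the lowest treated library, at 1.93, was close to the highest control, at 1.31.

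Tal1, the basic helix-loop-helix factor of the GATA1 complex, was among the lowest members before treatment and had larger estimates than Gata1 in each genotype, by less than their errors. WT libraries went from 1.05, 1.24 and 0.736 to 22, 13.4 and 47.2 RPKM, a change of 4.04 ± 0.59 (limma adjusted p = 1.88e-05). Pad2-/- libraries went from 1.47, 1.84 and 3.01 to 55.6, 7.89 and 39.5, by 3.39 ± 0.59 (limma adjusted p = 0.000108). Pad4-/- libraries went from 1.1, 1.1 and 0.635 to 28.2, 8.91 and 11.5, by 3.37 ± 0.59 (limma adjusted p = 0.000132). Replicate 2 was again the lowest treated library of both knockouts, and of WT.

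Lmo2, the bridging subunit of the same complex, which is also present in endothelium and in germinal centre B cells, was the most abundant member in control spleen. Its WT libraries held 62.2, 63.1 and 57.8 RPKM as controls and 67.4, 57.3 and 82.3 after imiquimod. The groups overlapped, and the difference of 0.16 ± 0.15 did not pass (limma adjusted p = 0.345). In Pad2-/- the controls held 70.2, 72.1 and 71.1 and the treated libraries 95.7, 56 and 79.3, a difference of 0.08 ± 0.15 (limma adjusted p = 0.648). It was past the threshold only without treated Pad2-/- replicate 2, at 0.29 (limma adjusted p = 0.0412). In Pad4-/- the controls held 66.9, 70.6 and 63.9 and the treated libraries 70.2, 65.3 and 60.5, a difference of -0.04 ± 0.15 (limma adjusted p = 0.82). The sign for WT and Pad2-/- was negative under quantile normalization and with haemoglobin left out.

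Zfpm1 encodes FOG1, the cofactor that GATA1 needs in erythroid cells and megakaryocytes. WT control spleens held 11.6, 11.8 and 10.9 RPKM, and treated ones 53.9, 33.2 and 88. The controls were tight and the treated libraries spread over a wide range, with a change of 2.19 ± 0.37 (limma adjusted p = 7.54e-05). Pad2-/- values were 12.3, 11.8 and 13.7 before and 88.5, 23.7 and 62.6 after, a change of 1.98 ± 0.37 (limma adjusted p = 0.000212). Pad4-/- values were 13.2, 12.8 and 11.2 before and 46.5, 30.2 and 33.5 after, a change of 1.51 ± 0.37 (limma adjusted p = 0.00208).

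Klf1, the activator of adult beta-globin, had the largest rise of the members in all 3 genotypes by its estimate. It was at 3.24, 4.01 and 1.78 RPKM in WT control spleen and at 98.8, 50.1 and 170 after imiquimod, a change of 4.81 ± 0.57 (limma adjusted p = 2.35e-06). The treated mean of 106 ± 60.3 had a wide spread, but no treated library came near the controls. Pad2-/- libraries went from 4.62, 4.96 and 7.49 to 175, 28.9 and 116, by 3.80 ± 0.57 (limma adjusted p = 2.83e-05). Pad4-/- libraries went from 3.85, 3.12 and 1.64 to 88.2, 38.5 and 38.1, by 3.99 ± 0.57 (limma adjusted p = 2.21e-05).

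Nfe2, the subunit of NF-E2 used in erythroid cells and megakaryocytes, had its lowest treated WT value in replicate 1, as Gata2 and Myb did and the other risers did not. WT controls held 2.74, 3.02 and 2.59 RPKM and treated spleens 15.3, 37.1 and 43.4, 3.18 ± 0.39 higher (limma adjusted p = 3.54e-06). In Pad2-/- the controls held 4.05, 4.04 and 5.35 and the treated spleens 69.9, 29.2 and 56.7, 3.32 ± 0.39 higher (limma adjusted p = 3.01e-06). In Pad4-/- the controls held 2.79, 2.51 and 1.92 and the treated spleens 45.3, 22.7 and 15.6, 3.16 ± 0.39 higher (limma adjusted p = 5.76e-06). The 3 changes lay within 1 standard error of each other.

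Gfi1b, the repressor that erythroid and megakaryocyte precursors need, was the lowest member in WT control spleen, at 0.998, 1.1 and 0.541 RPKM. After imiquimod WT libraries held 14.1, 10.4 and 25.7, a change of 3.57 ± 0.37 (limma adjusted p = 5.43e-07). Treated Pad2-/- libraries held 24.8, 6.45 and 15.4 against 0.963, 1.28 and 1.23, a change of 3.09 ± 0.37 (limma adjusted p = 3.07e-06). The treated Pad4-/- libraries were closer to each other, at 9.56, 7.79 and 9.18 against 0.879, 0.809 and 0.549, a change of 2.91 ± 0.37 (limma adjusted p = 6.48e-06). No treated library overlapped with its controls.

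Epor, the only receptor of the set, varied most among treated spleens. It was at 1.82, 1.34 and 1.06 RPKM in WT controls and at 23.3, 14.6 and 51.8 after imiquimod, a change of 3.82 ± 0.69 (limma adjusted p = 0.000138). Treated Pad2-/- libraries held 95.3, 9.3 and 46.2, so that replicate 1 was about 10.2 times replicate 2, against 2.09, 2.68 and 4.66 in the controls. The change was 3.34 ± 0.69 (limma adjusted p = 0.000483). Treated Pad4-/- libraries held 45.4, 9.69 and 15.1 against 2.16, 1.32 and 0.906, a change of 3.36 ± 0.69 (limma adjusted p = 0.00052). Leaving out 1 library moved some of these values: without treated Pad2-/- replicate 2 the Pad2-/- change was 4.26 for Epor, 4.23 for Tal1, 4.56 for Klf1 and 3.93 for Gata1. Without replicate 1 it was 2.62 for Epor, and without treated Pad4-/- replicate 1 the Pad4-/- change of Epor was 2.73. All of these still passed.

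Myb, the factor of dividing progenitors, rose by less than the erythroid factors but with the least spread of the members that rose. WT libraries went from 4.33, 4.37 and 4.06 to 13.5, 16.5 and 18.5 RPKM, a change of 1.80 ± 0.16 (limma adjusted p = 1.44e-07). Pad2-/- libraries went from 4.43, 4.46 and 3.75 to 20.1, 10.9 and 15.6, by 1.73 ± 0.16 (limma adjusted p = 3.4e-07). Pad4-/- libraries went from 3.66, 4.51 and 3.68 to 11.4, 11.4 and 11.3, by 1.42 ± 0.16 (limma adjusted p = 2.81e-06). The treated Pad4-/- libraries were almost equal (SD 0.0782), and all 3 lay below all treated WT libraries.

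**Figure D2:**
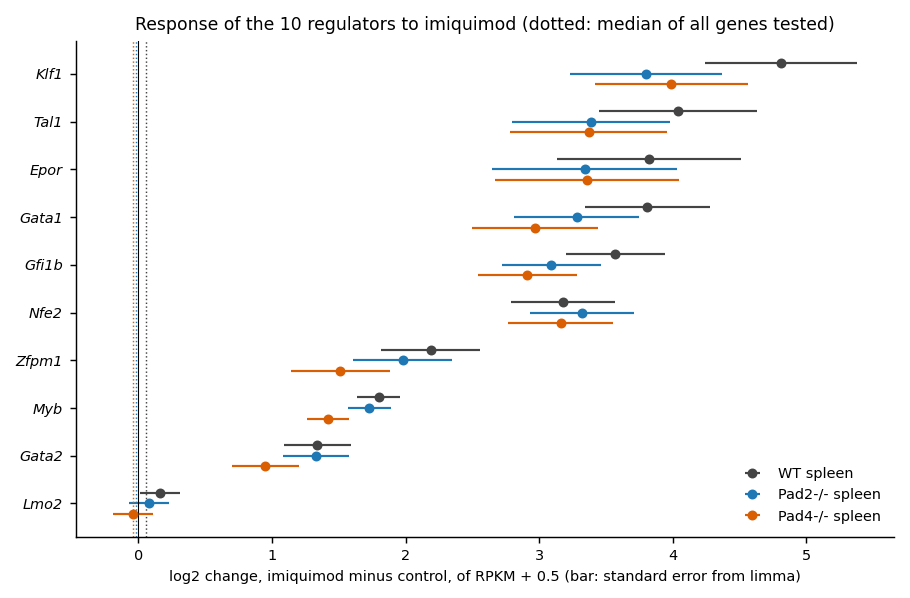
Log2 change of RPKM + 0.5 from control to imiquimod for the 10 members in WT, Pad2-/- and Pad4-/- spleen (points, 3 against 3 libraries), with the standard error from limma (bars) and the median of all genes tested (dotted lines). Klf1 has the largest estimates (4.81, 3.80 and 3.99) and Gata2 the smallest of those that passed (1.34, 1.33 and 0.95), while Lmo2 lies near 0.

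Before treatment the genotypes were compared within the control spleens. None of the 10 members passed between Pad2-/- and WT (0.142% of all genes did), and none had an unadjusted p below 0.05 (235 genes did). Even so, 6 members were higher in each Pad2-/- control library than in each WT one, as were 11.4% of all genes tested. These were Epor, at 3.14 ± 1.35 against 1.41 ± 0.386 RPKM, Klf1, at 5.69 ± 1.57 against 3.01 ± 1.13, Tal1, at 2.11 ± 0.805 against 1.01 ± 0.255, Nfe2, at 4.48 ± 0.754 against 2.78 ± 0.213, Gata1, at 2.54 ± 0.499 against 1.69 ± 0.195, and Lmo2, at 71.1 against 61 ± 2.82. On the log2 scale they differed by 0.89 ± 0.69, 0.84 ± 0.57, 0.76 ± 0.59, 0.59 ± 0.39, 0.46 ± 0.47 and 0.22 ± 0.15, with limma adjusted p-values of 1. The standard errors come from a spread shared with the treated libraries, which was larger. Summed haemoglobin was higher in the same direction, at 4154, 8660 and 6892 RPKM in Pad2-/- against 2528, 1759 and 3714 in WT; its part in the member values was not tested. Gata2, Zfpm1, Gfi1b and Myb overlapped, and the median over the members was 0.38 against 0.03 over all genes.

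Between Pad4-/- and WT control spleens no member passed either (0.15% of all genes did), the smallest limma adjusted p was 0.896, and no member had an unadjusted p below 0.05 while 801 genes did. The median over members was -0.06 against 0.05 over all genes. Lmo2 was the member whose libraries did not overlap, at 63.9 to 70.6 RPKM in Pad4-/- and 57.8 to 63.1 in WT, while 25.3% of all genes tested were higher without overlap. Klf1 was at 2.87 ± 1.12 against 3.01 ± 1.13 RPKM and Epor at 1.46 ± 0.64 against 1.41 ± 0.386, differences smaller than the spread.

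After imiquimod the treated Pad2-/- and WT spleens were compared with each other. No member passed (0.484% of all genes did), the smallest limma adjusted p was 0.397, none had an unadjusted p below 0.05 while 1872 genes did, and the members' median was -0.02 against -0.06 over all genes. The fit shares its spread with the control libraries, in which most members varied less. Klf1 had the same mean of 106 RPKM in both, with SDs of 73.3 and 60.3. Nfe2 was at 51.9 ± 20.8 against 31.9 ± 14.8, with overlapping libraries. When libraries were weighted by their consistency it passed, with a limma adjusted p of 0.0456. Among all genes called, 31% were higher in Pad2-/-, a share that was 59% with quantile normalization, 54.7% with median-ratio scaling and 78.9% with haemoglobin left out.

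The treated Pad4-/- spleens held less of each member on average than treated WT spleens, but no member passed (7.27% of all genes did, and 5.69% were lower), so the data do not separate them from WT. The members' median was -0.53 against -0.04 over all genes. Here too the standard errors share their spread with the control libraries, so they may be too small. With only these groups in the fit 4 genes were called, against 871. Myb and Gfi1b came closest and had an unadjusted p below 0.05, as 2848 genes did. Myb was lower by its libraries without overlap, at 11.4 ± 0.0782 against 16.2 ± 2.51 RPKM, a difference of -0.48 ± 0.16 (limma adjusted p = 0.0873, and 0.0506 to 0.326 under the alternatives). Gfi1b was at 8.85 ± 0.932 against 16.7 ± 8, also without overlap, as were 14% of all genes tested, a difference of -0.79 ± 0.37 (limma adjusted p = 0.205, and 0.0895 to 0.631 under the alternatives). Without WT replicate 3, the highest treated WT library for each, these differences were -0.38 and -0.44. The estimates for the others were -0.91 ± 0.47 for Gata1 (limma adjusted p = 0.259), -0.89 for Klf1, -0.73 for Tal1, -0.58 for Zfpm1, -0.45 for Epor, -0.44 for Gata2, -0.20 for Nfe2 and -0.07 for Lmo2, all with overlapping libraries. Leaving out 1 library moved the estimates between -1.29 and -0.47 for Gata1, -1.35 and -0.47 for Klf1, -1.21 and -0.26 for Tal1, -0.92 and -0.23 for Zfpm1 and -0.73 and -0.14 for Gata2. The value nearest 0 was in each case the one without WT replicate 3. Summed levels of other lists stood beside these values: megakaryocyte genes were at 119 to 265 RPKM in treated Pad4-/- and 201 to 998 in treated WT spleens, cell division genes at 640 to 647 and 740 to 935, and mature B cell genes at 955 to 1528 and 736 to 1157. The ranges of the megakaryocyte and the B cell sums overlapped. Their part in the members' values was not tested. Of the genes called, 21.7% were higher in Pad4-/-, against 50.8% with quantile normalization, 37% with median-ratio scaling and 59.3% with haemoglobin left out.

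Whether the response itself differed from WT was tested by the interaction of genotype and agent. No member passed for Pad2-/- (0.0334% of all genes did), with a smallest limma adjusted p of 0.832, and none for Pad4-/- (0.0668% of all genes did), with a smallest of 0.499. None had an unadjusted p below 0.05 in either, while 936 and 1729 genes did. The members' medians were -0.35 and -0.56, against -0.09 and -0.08 over all genes.

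The genes around these regulators moved in WT spleen as follows; with 40.3% of all genes rising, the counts are read beside their medians. Of 20 tested genes of the red cell membrane and its enzymes 19 rose, with a median of 3.48, among them Slc4a1 (the band 3 anion exchanger) by 3.80 ± 1.10 (limma adjusted p = 0.00578). In Pad2-/- spleen 20 rose and in Pad4-/- 18. Of 13 genes of haem synthesis and iron uptake 10 rose in WT (6 with haemoglobin left out of the total), 11 in Pad2-/- and 6 in Pad4-/-. Alas2, the erythroid enzyme that starts haem synthesis, rose by 2.69 ± 1.03 in WT (limma adjusted p = 0.028, and 0.0505 with haemoglobin left out), while its difference of 1.84 in Pad4-/- did not pass (limma adjusted p = 0.122).

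The haemoglobin genes, targets of these factors and the most abundant erythroid transcripts, moved less surely than the regulators. All 6 tested rose in WT and in Pad2-/-, with medians of 2.49 and 2.73, and none passed in Pad4-/-, with a median of 1.55. Hbb-b1 rose by 2.50 ± 0.93 in WT (limma adjusted p = 0.0246) and differed by 1.51 in Pad4-/- (limma adjusted p = 0.158). The WT count was 4 with quantile normalization, 5 with median-ratio scaling and 1 with haemoglobin left out of the total, and the Pad2-/- count was 0 with quantile normalization. The alpha and the beta chain genes have near-identical copies between which reads may be split, so their values are uncertain one by one.

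Of 10 tested genes that carry the erythropoietin signal onward, 4 rose and 3 fell in WT, with a median of 0.36. Over all genes 33.2% fell in WT, 36.7% in Pad2-/- and 36.1% in Pad4-/-, so that these counts lie near the shares over all genes. Jak2, the kinase bound to the receptor, fell by 0.31 on the log2 scale, from 21.5 ± 0.379 to 17.3 ± 0.578 RPKM (limma adjusted p = 0.0007), and Stat5a was at 13.8 ± 1.43 against 12.6 ± 0.38 (limma adjusted p = 0.183). In Pad2-/- 4 rose and 3 fell, and in Pad4-/- 4 and 4. Of 12 tested partners of the regulators' complexes 3 rose and 4 fell in WT, 3 and 3 in Pad2-/-, and 2 and 5 in Pad4-/-. Ldb1, which links LMO2 complexes on DNA, fell by 0.62 in WT, from 115 ± 1.59 to 74.9 ± 11.4 RPKM (limma adjusted p = 2.11e-05), and Tcf3, an E protein partner of TAL1, was at 59.4 ± 13.5 against 54.8 ± 1.85 (limma adjusted p = 0.567). Jak2 and Ldb1 were lower under all 3 other scalings.

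Other cells that use these regulators also had higher marker levels after imiquimod, with limits for 2 lists. The endothelial sums overlapped, and the germinal centre B cell sums of control and treated spleens met at 39.3 RPKM. Of 12 megakaryocyte and platelet genes 11 rose in WT, with a median of 2.97, and their summed level was 32.2 to 62.7 RPKM in the 9 control and 119 to 998 in the 9 treated spleens. Mast cell and basophil genes, of cells that use Gata2, summed to 14.7 to 29.5 and 39.7 to 144 RPKM. Of the genes of eosinophils, which need Gata1, 7 of 7 rose in WT, with a median of 2.43, and they summed to 4.96 to 18 RPKM in the control and 34.8 to 118 in the treated spleens. Of 9 tested stem and progenitor genes 7 rose in WT, with a median of 0.78; Cd34 rose by 1.74 ± 0.27 (limma adjusted p = 3.85e-05), while Kit, at 5.27 ± 1.26 against 3.95 ± 0.518 RPKM, did not pass (limma adjusted p = 0.0831). All 11 cell division genes rose in WT (median 3.46; summed 143 to 179 RPKM in control and 622 to 963 in treated spleens). All 6 mature B cell genes fell (median -1.57; 2357 to 2838 and 539 to 1528 RPKM). Genes of granulocyte precursors, which share early progenitors with the erythroid line, rose in WT in 9 of 9 (median 3.70), and genes of macrophages of the erythroblastic island and red pulp in 6 of 7 (median 1.96). Endothelial genes rose in 6 of 7 tested (median 1.34) and germinal centre B cell genes in 8 of 10 (median 1.70), cells in which Lmo2 is also known. The whole endothelial list summed to 50.1 to 57.1 RPKM in control and 53.3 to 86.5 in treated spleens, with overlap. The germinal centre list summed to 30.1 to 39.3 and 39.3 to 126 RPKM. Among 11 transcription factors of other lineages 4 rose and 6 fell, and Spi1, the myeloid factor that opposes GATA1, rose by 1.16 ± 0.20 (limma adjusted p = 8.59e-05). Of the markers in these lists none was at 0 in every library of a group, and the part of each cell type in the members' rise was not tested.

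Within a treatment the members varied together from library to library. Among the 9 treated spleens the highest library held 1.71 times the lowest for Lmo2, 1.85 for Myb, 2.99 for Gata2, 3.73 for Zfpm1, 3.99 for Gfi1b, 4.57 for Nfe2, 4.89 for Gata1, 6.05 for Klf1, 7.04 for Tal1 and 10.2 for Epor. Summed haemoglobin ranged 31.4 times, from 3261 to 102398 RPKM. Pad2-/- replicate 1 was the highest treated library for 7 members and WT replicate 3 for the other 3. Pad2-/- replicate 2 was the lowest for 8 members, so the most and the least erythroid treated libraries by these genes belong to the same group. Among the controls Pad2-/- replicate 3 was the highest for 6 members and Pad4-/- replicate 3 the lowest for 6.

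**Figure D3:**
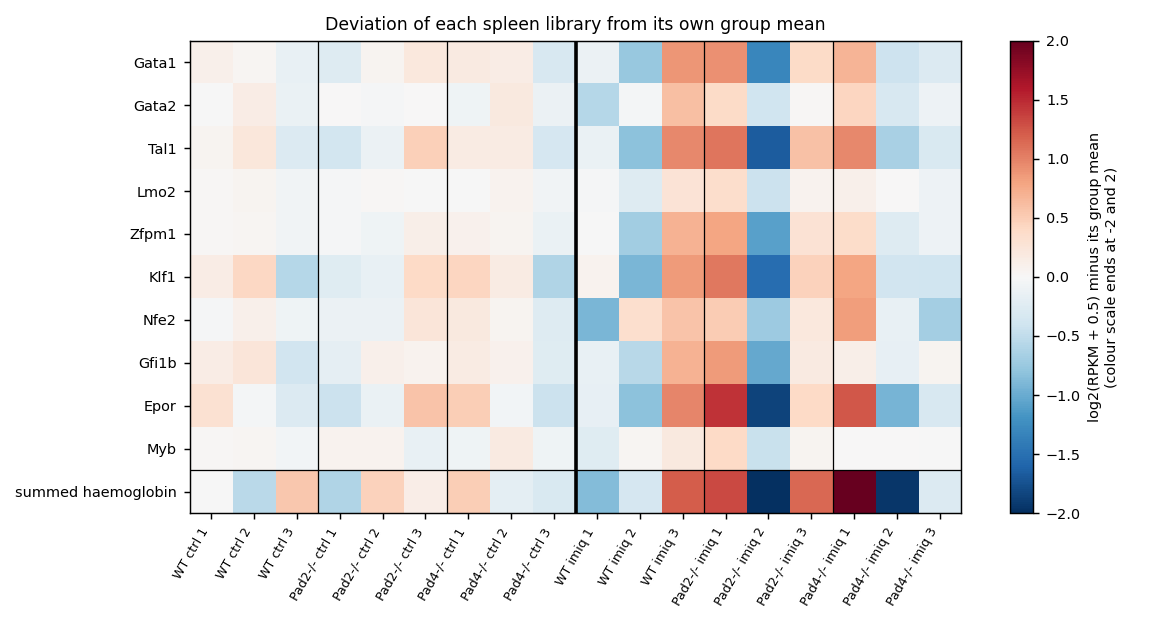
Deviation of each of the 18 spleen libraries from the mean of its own group, in log2 of RPKM + 0.5 (colour scale), for the 10 members and for summed haemoglobin. Pad2-/- imiquimod replicates 1 and 2 lie at opposite ends for most members and for haemoglobin.

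Over the 18 spleen libraries the deviations from group means, from which agent and genotype are removed, gave Pearson's r of 0.56 to 0.99 for the 45 pairs of members (median 0.79). Gata1, Tal1, Klf1, Epor and Zfpm1 formed the tightest set, with r of 0.93 to 0.99 in their 10 pairs. Across the 9 treated spleens the 45 pairs had a median r of 0.86, and across the 9 controls 0.70, with a range of -0.39 to 0.97. With summed haemoglobin r was 0.89 for Epor, 0.86 for Tal1, 0.85 for Gata1 and 0.58 for Myb. With summed cell division genes it was 0.89 for Lmo2, 0.87 for Gfi1b, 0.81 for Myb and 0.37 for Nfe2. With summed mature B cell genes all 10 were negative, from -0.86 for Nfe2 to -0.58. These are descriptions: the values of a library share its depth, its total and its mix of cells.

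The ratio of Gata1 to Gata2, which rises as progenitors become erythroid, does not depend on the scaling of a library. As log2 of the RPKM ratio it was 0.71, 0.42 and 0.58 in WT control spleens and 3.59, 2.32 and 3.28 after imiquimod. The means were 1.08 ± 0.31 and 2.95 ± 0.76 in Pad2-/-, and 0.56 ± 0.32 and 2.64 ± 0.18 in Pad4-/- (SD, n = 3). Across genotypes the controls ranged from 0.30 to 1.33 and the treated spleens from 2.07 to 3.59, without overlap. The ratio of Klf1 to Myb, a factor of maturing cells against one of dividing progenitors, went from -0.58 ± 0.55 to 2.56 ± 0.85 in WT, from 0.40 ± 0.52 to 2.47 ± 0.93 in Pad2-/- and from -0.54 ± 0.62 to 2.15 ± 0.69 in Pad4-/-. All treated libraries, at 1.41 to 3.20, lay above all controls here too. Other cell types use Gata2 and Myb too, so that neither ratio is of erythroid cells alone.

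**Figure D4:**
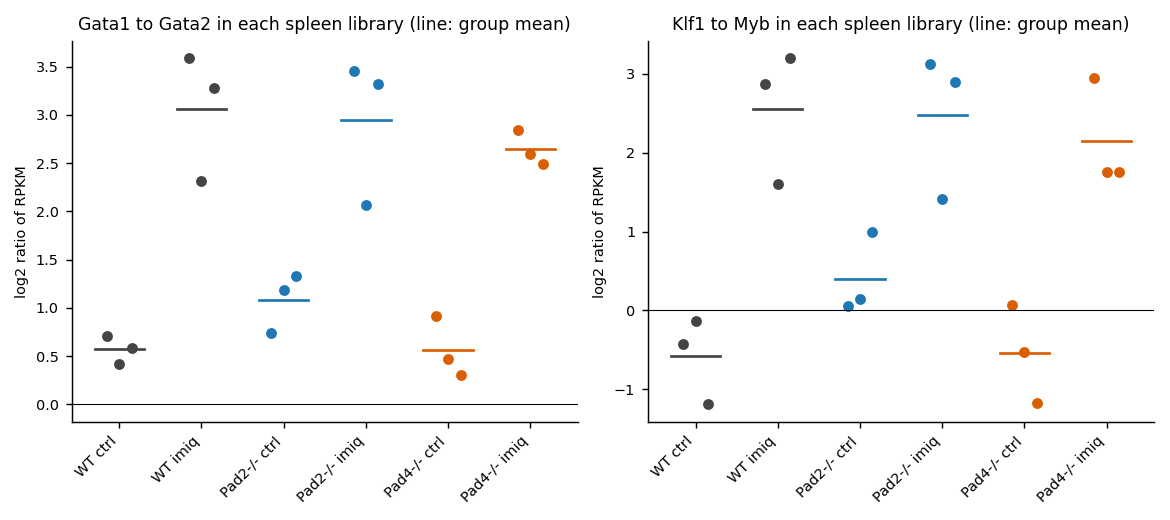
Log2 ratio of RPKM of Gata1 to Gata2 and of Klf1 to Myb in each of the 18 spleen libraries (points) with the group mean (line). In both panels each treated library lies above each control library, and the treated genotypes overlap. The Pad2-/- controls lie above the WT controls in both, a difference that was not tested.

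For each member the tested genes most like it were found by Pearson's r of log2(RPKM + 0.5) over the 18 spleen libraries, after removal of group means. Epor was most like Tspan33 (0.997), Ermap (0.994) and Hemgn (0.991), and Gata1 was most like Cpox (0.990), Tal1 (0.987) and Ifrd2 (0.987). Tal1 had Cpox (0.989) first and Klf1 had Slc43a3 (0.975). Zfpm1 was most like Col5a1 (0.998), Fads3 (0.994) and Alad (0.989), and Fads3 (0.974) was also first for Lmo2. Nfe2 had Mxi1 (0.989) and Gfi1b Steap3 (0.970) first. The likeness of Gata2 and Myb to any gene was weaker, with Prkar2b (0.879) and Timd4 (0.891) first. For Myb, Fbxo5 (0.884) and then Kit (0.873) followed. Timd4 was low, at a mean of 1.41 RPKM in control and 1.33 in treated spleens. With so many genes and few libraries the highest values are high by selection.

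In the lymph nodes, all from imiquimod-treated mice, the erythroid members were low. Spleen and lymph node values come from separate tables, so tissue and table cannot be told apart. Levels are thus set side by side with no test. Klf1 was at 0.0594 to 0.507 RPKM over the 12 lymph nodes and at 28.9 to 175 over the 9 treated spleens. Summed haemoglobin was 218 to 3272 RPKM there. Lmo2 (23.5 to 50.9), Zfpm1 (7.17 to 16.8) and Myb (3.7 to 13.9) were the members with the highest levels there. The log2 ratio of Gata1 to Gata2 was -0.07 ± 0.50 for WT and -0.31 ± 0.41 for Pad2-/-, and the libraries labelled Pad4-/- had -0.85 ± 0.36 (SD, n = 4). Of the last, replicates 1 and 2 were at -0.53 and -0.56, within the WT range of -0.59 to 0.39. Replicates 3 and 4, whose Padi4 goes against the label, were at -1.24 and -1.08. Klf1, Tal1 and Gfi1b did not reach 1 RPKM in 4 libraries and were not tested, which left 7 members.

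**Figure D5:**
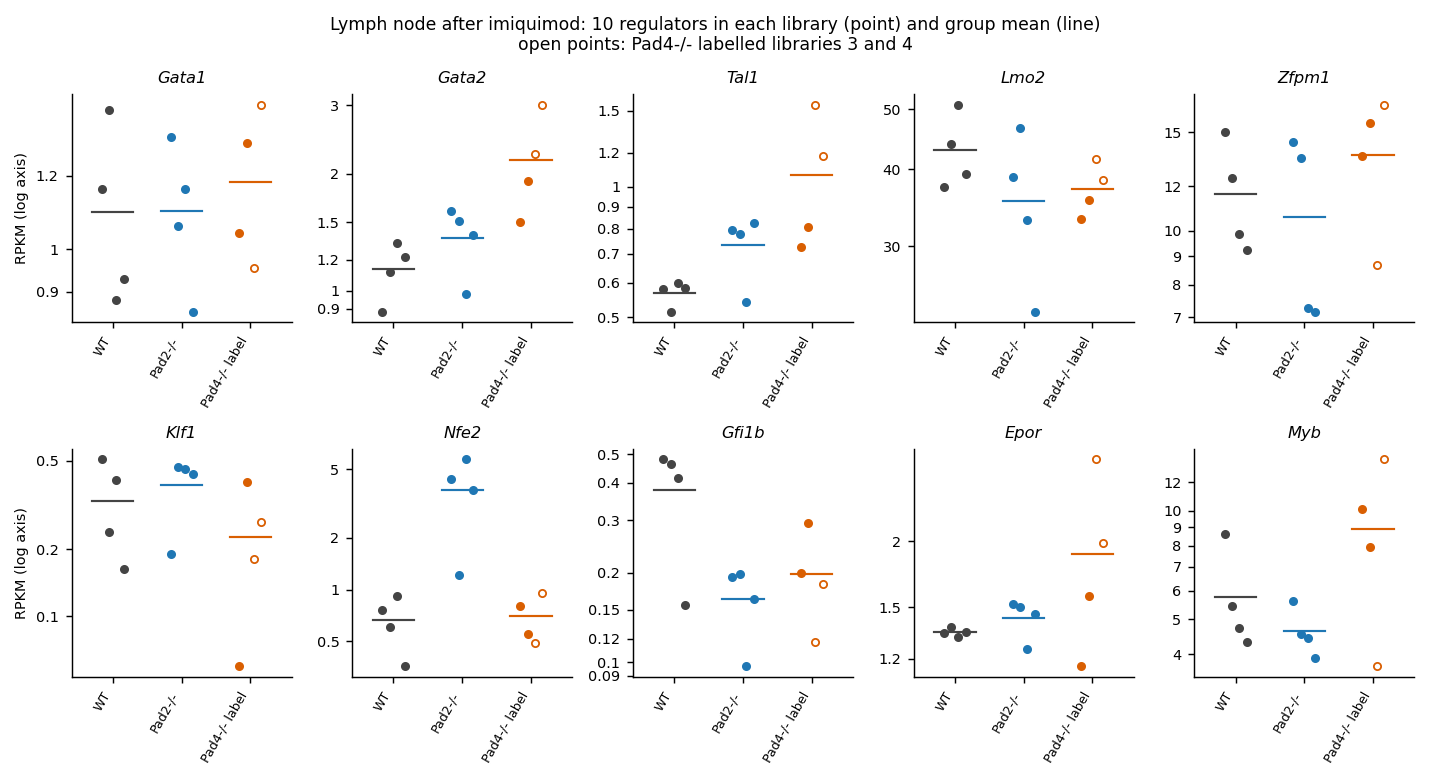
RPKM of the 10 members (log axis) in each of the 12 lymph node libraries (points) with the group mean (line), for WT, Pad2-/- and libraries labelled Pad4-/-, all after imiquimod; open points are replicates 3 and 4 of the last group. Nfe2 is higher in all 4 Pad2-/- libraries, and the other 9 members overlap between Pad2-/- and WT.

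In lymph node Nfe2 was higher in all 4 Pad2-/- libraries than in all 4 WT ones. It was at 0.766, 0.607, 0.924 and 0.358 RPKM in WT and at 4.41, 1.21, 5.72 and 3.82 in Pad2-/-, so that replicate 2 was the closest to WT. Of the 12285 genes tested, 2.25% were higher without overlap. Nfe2 passed the filter on low values only through its Pad2-/- libraries, so a gene kept by this filter had to differ, and its test is given as a description. Without the filter the limma adjusted p was 0.136. With it the difference was 1.76 ± 0.32 and the limma adjusted p 0.0232, below the threshold as for 0.407% of genes in this direction and 0.464% in either. It was not below the threshold with quantile normalization (0.0506), with library weights (0.0614) and with only these groups in the fit (0.0988). Nor was it without any of 6 of the 8 libraries (0.0757 to 0.0965), while without Pad2-/- replicate 2 the difference was 2.15 (limma adjusted p = 7.1e-05). In the libraries labelled Pad4-/- Nfe2 was at 0.804, 0.554, 0.489 and 0.955, within or near the WT range.

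The 9 genes of granulocyte precursors, cells of the bone marrow, summed to 39.1 to 119 RPKM in WT and 115 to 1418 in Pad2-/-, while the libraries labelled Pad4-/- held 39.9 to 114. The ranges of WT and Pad2-/- overlapped. None of the 9 was at 0 in all libraries of a group, and 3 of 9 passed in Pad2-/- against WT. Elane, their neutrophil elastase gene, was at 28.8 ± 33.4 against 2.71 ± 1.97 RPKM and did not pass (limma adjusted p = 0.153). Padi4, which granulocytes express, was at 8.16, 1.3, 7.91 and 4.85 RPKM in Pad2-/- and 0.679 to 1.05 in WT. Its order in Pad2-/- was that of Nfe2 except for replicates 1 and 3. Padi4 lies 0.1 Mb from Padi2, and the part of the altered locus in its level was not tested. In control spleen it was also higher in Pad2-/-, at 3.39 ± 0.561 against 1.57 ± 0.604 RPKM in WT. In imiquimod spleen it was at 21.8 ± 4.68 against 16.8 ± 8.59, with overlap. The deviations of Nfe2 and of the granulocyte sum had r of 0.88 over the 12 lymph nodes, and -0.07 with summed haemoglobin. Eosinophil genes summed to 7.36 to 11.6 RPKM in Pad2-/- and 4.33 to 6.06 in WT, without overlap, and none of the 5 tested passed. The part of these cells in the Nfe2 value was not tested.

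The other 6 tested members did not pass between Pad2-/- and WT lymph node. Their log2 differences were -0.30 for Lmo2, -0.25 for Myb, -0.17 for Zfpm1, 0.01 for Gata1, 0.06 for Epor and 0.19 for Gata2. The median over the 7 was 0.01 against -0.12 over all genes.

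Between the libraries labelled Pad4-/- and WT lymph node no member passed (0.00814% of all genes, 1 gene, did), and 1 member had an unadjusted p below 0.05, as 485 genes did. That member was Gata2, at 1.5, 1.91, 2.25 and 3.01 RPKM against 0.884, 1.12, 1.33 and 1.22, with no overlap, as for 1.98% of all genes tested. The difference was 0.68 ± 0.18 (limma adjusted p = 0.527), and with replicates 1 and 2 alone it was 0.43 (limma adjusted p = 1). The highest values were those of replicates 3 and 4, whose Padi4 goes against the label. Tal1, which was not tested, was also higher without overlap, at 0.725, 0.809, 1.55 and 1.18 against 0.515 to 0.6 RPKM. Both genes are also expressed in endothelium, whose 12 genes summed to 218 to 357 RPKM in these libraries, 189 to 231 in WT and 177 to 280 in Pad2-/-. The deviations of the endothelial sum had r of 0.87 with Tal1, 0.81 with Epor and 0.76 with Gata2 over the 12 lymph nodes. Cell division genes had r of -0.78, -0.75 and -0.87 with the same members, and the part of either was not tested. Mast cell and basophil genes, of cells that use Gata2, summed to 36.5 to 75.8 RPKM in the libraries labelled Pad4-/- and 19.2 to 37.4 in WT, with means of 60.8 and 27.9. None of the 5 tested passed, their sum had r of -0.24 with Gata2 over the 12 lymph nodes, and their part was not tested either.

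The remaining differences of that comparison were 0.50 ± 0.30 for Myb, 0.33 ± 0.18 for Epor, 0.21 for Zfpm1, 0.08 for Gata1, 0.05 for Nfe2 and -0.20 for Lmo2. With replicates 1 and 2 alone they were 0.64, 0.01, 0.34, 0.07, 0.04 and -0.31. Across the 12 lymph nodes the 45 pairs of members had r of -0.51 to 0.94 (median 0.08). The 10 pairs of Gata1, Tal1, Klf1, Epor and Zfpm1, tight in spleen, had a median of 0.03 here, with Tal1 and Epor the exception at 0.94. Over these lymph nodes Klf1 was at 0.0594 to 0.507 RPKM, Tal1 at 0.515 to 1.55 and Gata1 at 0.857 to 1.43. The part of noise at such low levels in these r was not tested.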

How the data were processed

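Spleen (18 libraries) and lymph node (12 libraries) were analysed from 2 tables of RPKM deposited by the authors, with 1 column per library. Per the submitters' processing notes, bcl2fastq 1.17.1, TopHat2 2.1.0 and the genome build mm10 were used; for the step to RPKM, the tool, annotation and use of strand are not given in the sources. Per the labels' protocols, libraries were made from poly(A) RNA with a NEBNext kit. Because RPKM is relative to all mapped reads of a library, abundant haemoglobin reads lower the other genes.

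Genotype, agent and tissue labels gave the groups. Tests on log2(RPKM + 0.5) used limma 3.58.1 (R 4.3.3), eBayes with trend, two-sided, with all groups of a tissue in 1 fit. The filter kept 11982 genes with at least 1 RPKM in 3 or more spleens and 12285 with that level in 4 or more lymph nodes. Benjamini-Hochberg adjustment ran over every tested gene in each of 11 comparisons, with a threshold of 0.05. Relative depth came from genes listed at 0 in part of the libraries, and no counting interval can be given. The model was tested on simulated data that gave each gene the same spread in all groups. Most members spread more in treated than in control spleens, which that test does not cover. Descriptions were made in Python 3.11.15 with pandas 2.3.3 and numpy 2.4.6.

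The members and the gene lists were chosen with earlier results of these data known. Every member is named, other genes are among the first entries of the lists in their written order, of which some are not reported here, and genes most like a member were taken by the size of r. Alternatives were pseudocounts of 0.1 and 1, no filter, quantile normalization, median-ratio scaling, haemoglobin left out of the total, library weights, a replicate block, only the groups compared, each library left out in turn, and lymph node Pad4-/- replicates 1 and 2 alone. In all, 0 library pairs held identical values and 0 sample columns were unused.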

Additional observations from a re-analysis of the deposited data

Results flagged for a closer look

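In the 4 Pad2-/- lymph nodes, Klf1 of replicate 1 was at 0.191 RPKM while the other 3 libraries held 0.435 to 0.471. Its distance from the nearest of the others, divided by the range of the group, was 0.871, above the 95% critical value of Dixon's test. Each member was looked at in each lymph node group, and 1 of 30 such groups stood out in this way; chance gives about 1 in 20. All of these levels lie below the 1 RPKM of the filter, and Klf1 was not tested in lymph node.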

How the results depend on the processing

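The 9 rises after imiquimod kept their direction and passed under every alternative run in each genotype. Lmo2 reversed in WT and Pad2-/- with quantile normalization (-0.22 and -0.24) and with haemoglobin left out (-0.13 and -0.15), and leaving out 1 library gave -0.09 to 0.29 in Pad2-/- and -0.09 to 0.01 in Pad4-/-. Other small differences that reversed, among comparisons whose differences are given for each member or for those that did not overlap, were, for Pad2-/- against WT control spleen, Gata2 with quantile normalization (-0.02; -0.03 to 0.12 without 1 library) and Myb with haemoglobin left out (0.00) or library weights (0.01; -0.05 to 0.06 without 1 library). For Pad4-/- against WT imiquimod spleen they were Lmo2 with quantile normalization (0.04; -0.19 to 0.07 without 1 library), Nfe2 (-0.66 to 0.14) and Epor (-1.08 to 0.03). In lymph node they were Zfpm1 in Pad2-/- with library weights (0.15), Gata1 in Pad2-/- (-0.06 to 0.10 without 1 library) and Nfe2 in the libraries labelled Pad4-/- with haemoglobin left out (-0.00), with library weights (-0.07) and without 1 library (-0.09 to 0.16). Over all comparisons 1604 of 1715 member values kept direction and side of the threshold, 10 lost their call, 2 gained one and 99 changed sign, of which 24 of 150 were in Pad2-/- against WT imiquimod spleen, 14 of 150 in Pad4-/- against WT control spleen, and 22 and 12 of 210 in the Pad2-/- and Pad4-/- interactions; the cause was not tested.

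Numbers of genes called over the whole table moved more. Pad2-/- against WT control spleen had 17, then 82 with library weights, 43 with only these groups and 10 to 13 without 1 library. Pad4-/- against WT control spleen had 18, then 1677, 1324 and 7 to 11. Pad2-/- against WT imiquimod spleen had 58, then 19 with haemoglobin left out, 1015 with library weights (1 member called, Nfe2), 32 with a replicate block, 2 with only these groups and 12 to 739 without 1 library. Pad4-/- against WT imiquimod spleen had 871, then 268 with haemoglobin left out, 4 with only these groups and 139 to 1507 without 1 library (139 without WT replicate 3). The Pad2-/- interaction had 4, then 2 with a pseudocount of 0.1, 7 with haemoglobin left out, 412 with library weights, 1 with only these groups and 3 to 7 without 1 library. The Pad4-/- interaction had 8, then 366 with library weights and 4 to 756 without 1 library (756 without WT imiquimod replicate 2). In Pad2-/- against WT lymph node the 1 member called was Nfe2, which passed the filter only through its Pad2-/- libraries. That comparison had 57 with 1 member, then 15 without the filter, 26 with library weights and 5 with only these groups. In those 3, and with quantile normalization, 0 members were called. Without 1 library it had 5 to 230 genes and 0 to 1 members (230 without Pad2-/- replicate 2). The libraries labelled Pad4-/- had 1, then 10 with library weights, 6 with only these groups, 0 to 2 without 1 library, and 0 without the filter, with median-ratio scaling, with haemoglobin left out, with the replicate block and with replicates 1 and 2 alone.

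No pairing by replicate number was seen throughout a comparison: in none did every same-numbered pair of deviations correlate above 0.1, with r from -0.48 to 0.40. For Pad4-/- against WT lymph node r was 0.31, 0.39, 0.18 and -0.07 for replicates 1 to 4. With 3 or 4 libraries per group this check cannot settle whether libraries were paired. With the replicate block the Nfe2 difference in Pad2-/- lymph node had a limma adjusted p of 0.0355. Because of the filter, that value too is a description. The block changed no member's call. Unknown depth limits the low members, and 3 or 4 libraries per group with a wide spread after imiquimod limit every genotype comparison.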
